A study of Mus musculus with 17 samples.

Results

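The 10 genes described here encode enzymes that set the phosphorylation of the microtubule-binding protein Tau: the kinases Gsk3a, Gsk3b, Cdk5, Mark1, Mark2, Mark4 and Dyrk1a, the Cdk5 activators Cdk5r1 and Cdk5r2, and Ppp2ca, the catalytic subunit of protein phosphatase 2A. They were chosen by symbol, whatever their level, and are 10 of the 56953 genes in the table of counts. All 10 passed the filter on low counts, as did 23062 genes in all. RNA came from the prefrontal cortex of 8-month-old B6C3F1/J mice, as 5 WT, 6 hTau and 6 CgA-KO/hTau libraries, and was read by paired-end mRNA sequencing. In hTau mice (PS19), a transgene for human Tau with the change P301S is driven by the promoter of Prnp, which is active in neurons and other cells. CgA-KO/hTau mice carry the same transgene and lack Chga, the gene of chromogranin A, throughout the body, and a CgA-KO group without the transgene is not among these libraries. The study describes its n as biological replicates, with males and females in each group, and the labels do not give the sex of each library.

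Tau stabilises microtubules in axons, and its binding weakens as phosphates are added. The proline-directed kinases GSK3 and CDK5 phosphorylate serines and threonines that are followed by proline, whereas MARK kinases act on the KXGS motifs of the repeats that bind tubulin. CDK5 is active only when bound to p35 (Cdk5r1) or p39 (Cdk5r2), DYRK1A can prime sites for GSK3, and protein phosphatase 2A is the main Tau phosphatase of the brain. These enzymes are controlled largely after translation, so transcript levels are not a measure of their activity.

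The genes lie on 6 chromosomes of GRCm38 (GENCODE M21), with summed exon lengths of 2.17 kb (Cdk5) to 9.83 kb (Gsk3b) and exon GC contents of 44.6% (Ppp2ca) to 63.9% (Cdk5r2). Of the 10, 7 had a promoter in the RefSeq table (GRCm38.p6), and Cdk5, Cdk5r1 and Mark4 did not. The stretches upstream of both the RefSeq and the GENCODE start are printed 5′ to 3′ for Cdk5r2 and Mark1, the members whose transcripts passed the test below, and for Ppp2ca, whose difference varied between sets of libraries. Capitals mark the letters of a GC box (GGGCGG) or of the CCAAT box, searched on both strands. In the last line they mark a cAMP response element (TGACGTCA), the same on both strands.
Cdk5r2, chr1:74854779-74854933, plus strand: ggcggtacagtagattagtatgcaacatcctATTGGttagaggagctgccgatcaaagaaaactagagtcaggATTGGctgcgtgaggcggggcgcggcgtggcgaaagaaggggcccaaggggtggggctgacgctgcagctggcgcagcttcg
Mark1, chr1:184999571-184999799, minus strand: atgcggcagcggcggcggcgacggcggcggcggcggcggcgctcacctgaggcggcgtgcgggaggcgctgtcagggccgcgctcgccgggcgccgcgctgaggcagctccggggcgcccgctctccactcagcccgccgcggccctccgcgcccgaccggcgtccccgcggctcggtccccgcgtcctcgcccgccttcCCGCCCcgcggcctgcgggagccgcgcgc
Ppp2ca, chr11:52098574-52098680, plus strand: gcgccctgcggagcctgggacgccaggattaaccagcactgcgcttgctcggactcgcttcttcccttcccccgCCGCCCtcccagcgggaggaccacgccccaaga
Ppp2ca cAMP response element with its flanks, chr11:52098788-52098815, plus strand: gacgctggcgTGACGTCAccacgccggg
The Ppp2ca element lay downstream of the GENCODE start and upstream of the RefSeq start. In the full windows of 250 bases before to 50 after the RefSeq start, a GC box was found in all of the 7 members but Gsk3b and in 35.7% of 32851 windows of the same length. The CCAAT box was found in Gsk3a, Gsk3b and Cdk5r2 and in 37.4% of windows, and the cAMP response element in Ppp2ca and in 1.79%. These are matches of letters and not binding sites.

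Total counts per library ranged from 8838334 (WT replicate 4) to 227651681, and each of the 10 genes had counts in every library. Chga was at 0 counts in all CgA-KO/hTau libraries and at 152 to 180.1 CPM (counts per 1000000, with library sizes normalised by TMM) in WT and 162 to 177 in hTau. Prnp, whose promoter drives the transgene, was at 748 to 915 CPM in WT, 1974 to 2368 in hTau and 1236 to 2079 in CgA-KO/hTau. The mouse gene of Tau, Mapt, was at 199 to 740 CPM in WT, 831 to 952 in hTau and 584 to 868 in CgA-KO/hTau. Reads were aligned to the mouse genome alone, and whether reads of human Tau were counted on Mapt was not tested. Several libraries stood apart. hTau replicates 4 to 6 were close to each other, with a robust SD of the log2 ratio of 0.0523 to 0.0607 over 3761 genes, and CgA-KO/hTau replicates 1 and 3 came to 0.098, against 0.146 or more for the other pairs within a genotype. Both values still exceeded sampling noise. Whether these libraries are separate animals or repeats of the same source was not tested, the printed n would be too high for repeats, and results are also given with these libraries summed. CgA-KO/hTau replicates 1 to 3 drew 13.8% to 18.2% of their counts from mitochondrially encoded genes, against 3.84% to 10.9% in replicates 4 to 6, 3.53% to 7.94% in WT and 2.56% to 4.59% in hTau. In each genotype, the Y-linked gene Ddx3y exceeded 1 CPM in replicates 1 to 3 (Ddx3y-high libraries) and stayed under 1 CPM in the others (Ddx3y-low libraries). The Ddx3y-low set thus holds 2 libraries in WT and the near-identical replicates 4 to 6 in hTau. CgA-KO/hTau replicates 1 and 3 both lie in the Ddx3y-high set. Tests by set were not repeated with the near-identical libraries summed. Ddx3y-high and Ddx3y-low libraries differed in 30 genes within WT, 12 within hTau and 4396 within CgA-KO/hTau, so that Ddx3y, the mitochondrial share and other differences cannot be told apart within CgA-KO/hTau.

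The markers of cortical excitatory neurons summed to 969 to 2271 CPM over the 17 libraries. The summed level of 12 striatal markers, such as Drd1 and Ppp1r1b, was 1170 to 3537 CPM in WT, 266 to 305 in hTau and 262 to 2084 in CgA-KO/hTau. Of these 12 markers, 11 were lower in hTau than in WT and 8 were higher in CgA-KO/hTau than in hTau, and Isl1 was at 0 in 9 libraries, namely all of hTau and CgA-KO/hTau replicates 4 to 6. Of the 6 interneuron markers, 1 was higher and 1 lower in hTau than in WT, and 3 were lower in CgA-KO/hTau than in hTau and 4 than in WT. Of 4 choroid plexus markers, 2 were higher in WT than in either other genotype, with a summed level of 1063 CPM in WT replicate 5 against 3.28 to 12.7 in the other 16 libraries. Single markers were called for neurons (1 of 5, lower in CgA-KO/hTau than in hTau) and astrocytes (1 of 5, higher in hTau than in WT and 1 higher in CgA-KO/hTau than in hTau), and for oligodendrocytes 1 of 5 was higher in CgA-KO/hTau than in hTau and 2 than in WT. Lists for cortical excitatory neurons, oligodendrocyte precursors, microglia, endothelium and blood had no gene called in any comparison. Astrocyte markers varied widely within each genotype, with sums of 544 to 2935 CPM in WT, 578.5 to 4321 in hTau and 585 to 5298 in CgA-KO/hTau. In bulk tissue, fewer cells of a type and less RNA per cell cannot be told apart.

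Per kilobase of exon, Cdk5r2 was the most abundant of the 10 transcripts, with a mean of 126 CPM per kb over the 17 libraries, followed by Cdk5r1 (91.3), Ppp2ca (60.6) and Gsk3a (54.3). Cdk5, Gsk3b and Mark1 followed at 31.0, 30.8 and 30.4 CPM per kb, closer than their spread, and Mark4, Mark2 and Dyrk1a were lowest at 15.5, 14.4 and 11.9. The activators of Cdk5 were thus more abundant per length than the kinase itself in these libraries. Over the 17 libraries, each gene's range overlapped that of its neighbour in this order, except between Mark1 and Mark4.

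**Figure D1:**
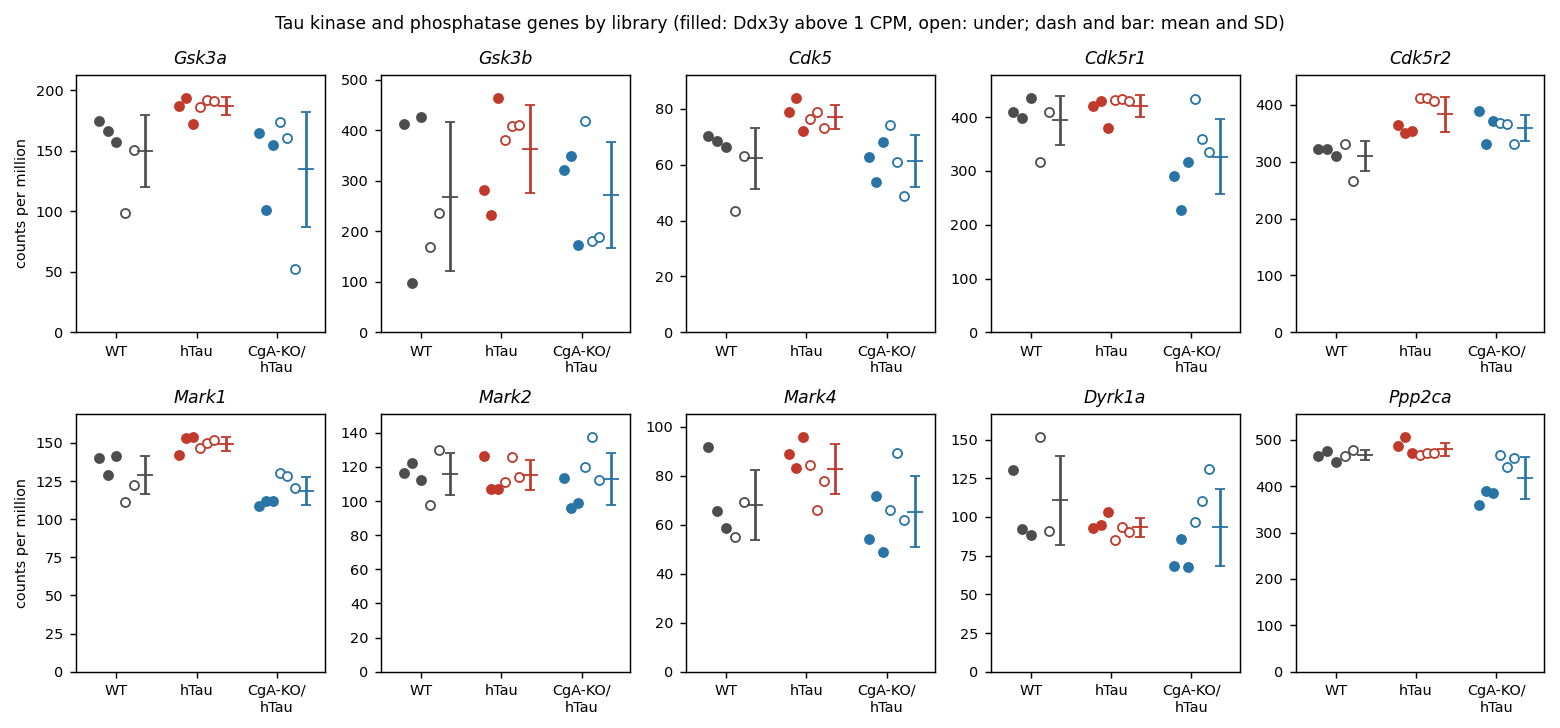
Level of each of the 10 genes in every library, in CPM on linear axes from 0, by genotype. Each point is a library, filled where Ddx3y was above 1 CPM and open where it was under, with the mean and SD to the right of the points. Gsk3b spans 97.5 to 427 CPM within WT, whereas Ppp2ca spans 452 to 478, and the filled CgA-KO/hTau points are the lowest of their genotype for Mark1 and of all libraries for Ppp2ca.

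The members differed widely in how steady they were between libraries of a genotype. Gsk3b was the least steady, with a within-genotype SD of 0.63 on the log2 scale, which 3.59% of the 2231 genes of at least 100 CPM exceeded. Gsk3a followed at 0.44, and 10.8% of those genes were less steady. Mark1, Cdk5r2 and Ppp2ca had SDs of 0.10, 0.11 and 0.10, and over 94% of the genes compared had larger ones (95.4%, 94.0% and 96.2%). The median SD of the 2231 genes was 0.23. The SE of a log2 fold change was accordingly 0.08 for Ppp2ca and Mark1 and 0.32 to 0.34 for Gsk3b.

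The first question was which of these transcripts differed between hTau and WT, that is, with the human Tau transgene. Of the 10, Cdk5r2 passed the test and was higher in hTau, whereas 450 of all genes tested (1.95%) were higher and 911 (3.95%) lower at an adjusted p under 0.05. For 3 of the 10 genes, Cdk5r2, Cdk5 and Mark1, every hTau library exceeded every WT library. Of all genes tested, 9.52% had no overlap in either direction. Of the 4274 genes of at least 50 CPM, 475 were separate and higher and 236 separate and lower. The median log2 fold change of the 10 genes was 0.25, with 8 above 0. It was 0.01 for all genes tested and 0.04 for the 4274 genes of at least 50 CPM, of which 2408 were above 0. With an offset for each library's trend over GC content and length, the median of the 10 was 0.08, with 6 above 0. With the striatal marker score as a covariate, a fit that extrapolates as described below, it was 0.02, with 5 above 0.

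Cdk5r2, the p39 activator of CDK5, was at 322, 322, 311, 331 and 266 CPM in WT replicates 1 to 5, at 350.2 CPM in the lowest, 385 at the median and 412 in the highest hTau library, and at 331, 367 and 388 in the lowest, median and highest of CgA-KO/hTau. Every hTau library exceeded every WT library, and the CgA-KO/hTau libraries lay between and across both. Its mean was 383 ± 30.1 CPM in hTau (SD, n = 6) and 310.2 ± 25.9 in WT (SD, n = 5), a log2 fold change of 0.30 ± 0.08 (SE, adjusted p = 0.0417 by edgeR's quasi-likelihood test). The call was lost, at adjusted p-values of 0.0508 to 0.14, when any of WT replicates 1, 2, 3 and 5 or hTau replicates 1, 2, 4, 5 and 6 was left out, with the near-identical libraries summed (log2 fold change 0.25, adjusted p = 0.223), without a filter on low counts (adjusted p = 0.0757) and with the striatal marker score, the mean log2 level of the striatal markers, as a covariate (0.32, adjusted p = 0.0842). It held in 20 of 36 alternatives, some of which left out a CgA-KO/hTau library. Among fits that left out a WT or hTau library, it held only without WT replicate 4 or hTau replicate 3. The threshold of the study, under which no member was called, is not among the 36. The striatal score was 0.81 to 2.58 in WT and -1.39 to -1.25 in hTau. As these ranges do not overlap, the covariate fit of this comparison extrapolates from slopes within genotypes. Cdk5r2 has the highest exon GC content of the 10, and with an offset for each library's trend over GC content and length its log2 fold change was -0.04 (adjusted p = 0.923).

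Cdk5r2 was also compared between the 2 sets of hTau libraries. hTau replicates 1 to 3 held 365, 350.2 and 353 CPM, and replicates 4 to 6, which were nearly identical to each other, held 412, 412 and 406, a log2 difference of -0.20 ± 0.09 that did not pass the test (adjusted p = 0.968). Among Ddx3y-low libraries, of which WT has 2, the log2 fold change against WT was 0.46 ± 0.10 (adjusted p = 0.00944). Among Ddx3y-high libraries it was 0.16 ± 0.09 (adjusted p = 0.494). The difference between these effects did not pass the test either (-0.30 ± 0.14, adjusted p = 0.475).

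Cdk5 itself was at 70.1, 68.6, 66.4, 43.5 and 62.9 CPM in the WT libraries and at 72.0 to 83.8 in hTau, with a median of 77.5. The genotypes did not overlap, and the log2 fold change was 0.31 ± 0.12 (adjusted p = 0.157). Mark1 was at 140.0, 129, 141, 111 and 122 CPM in WT and at 142 to 154 in hTau, with a median of 151. Its lowest hTau library was just above its highest WT library, and the log2 fold change of 0.22 ± 0.08 had an adjusted p of 0.13 by edgeR, of 0.0331 by DESeq2 and of 0.0137 in Ddx3y-low libraries (0.35), and was 0.10 with the striatal covariate (adjusted p = 0.597). Cdk5r1, which encodes the more studied activator p35, did not pass the test, at 394 ± 45.4 CPM in WT and 421 ± 20.4 in hTau (log2 fold change 0.09 ± 0.13, adjusted p = 0.729), and its sign turned with the GC and length offset (-0.04) and the striatal covariate (-0.06).

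For the GSK3 pair, Gsk3a was at 175, 166, 157, 98.8 and 151 CPM in WT and at 172 to 194 in hTau, and Gsk3b was at 413, 97.5, 427, 169 and 237 CPM in WT and at 233 to 464 in hTau. The ranges of the genotypes overlapped for both. Their log2 fold changes were 0.32 ± 0.23 (adjusted p = 0.446) and 0.43 ± 0.34 (adjusted p = 0.495), so neither passed the test. Single libraries and the offset moved these values: Gsk3b was at 0.22 without WT replicate 2 and 0.66 without WT replicate 3, and Gsk3a at 0.21 without WT replicate 4 and 0.14 with the GC and length offset. Ppp2ca was nearly level, at 467 ± 10.5 CPM in WT and 479 ± 14.5 in hTau, a log2 fold change of 0.04 ± 0.08 (adjusted p = 0.849, and -0.19 with the striatal covariate at an adjusted p of 0.187).

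Of the remaining kinases, Mark2 was at 116 ± 12.2 CPM in WT and 115 ± 8.83 in hTau (log2 fold change -0.01 ± 0.10, adjusted p = 0.984), and Mark4 at 68.0 ± 14.4 and 82.6 ± 10.1 CPM (0.28 ± 0.15, adjusted p = 0.32, and 0.06 with the GC and length offset). Dyrk1a, whose human counterpart lies in the chromosomal region triplicated in Down syndrome, was at 130.1, 92.5, 88.6, 151 and 90.6 CPM in WT and at 85.2 to 104 in hTau. WT replicates 1 and 4, the shallowest of WT, were its highest libraries. The log2 fold change was -0.24 ± 0.17 (adjusted p = 0.453), and it was 0.05 without the libraries under 50000000 counts and -0.95 with the striatal covariate (adjusted p = 0.00274). The striatal scores of WT and hTau do not overlap, so the last value is an extrapolation.

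**Figure D2:**
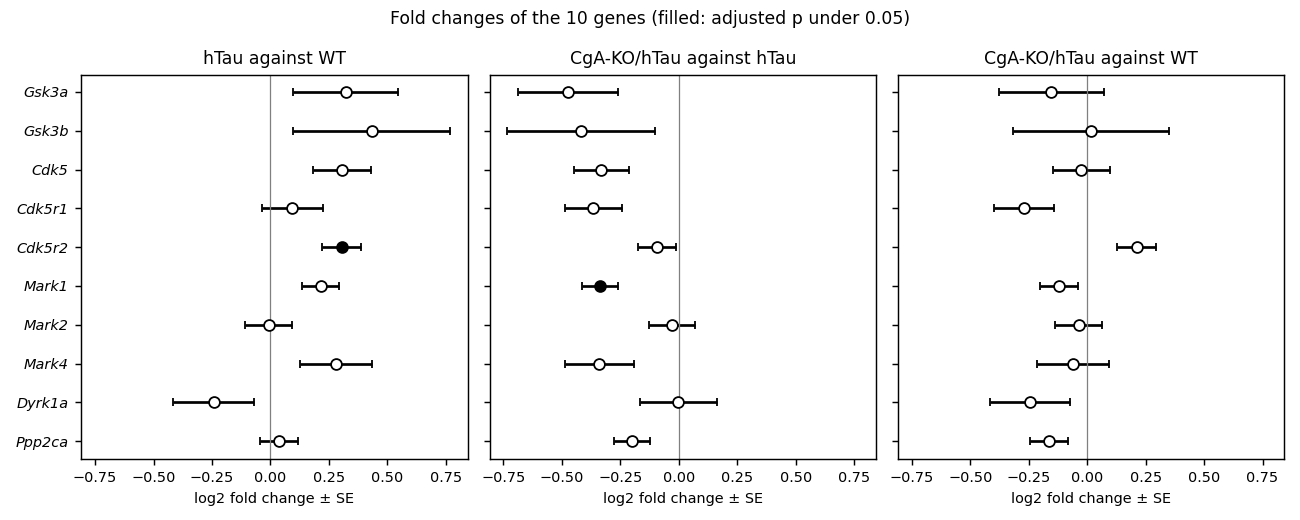
Log2 fold change of each of the 10 genes in the 3 comparisons (points, with bars of 1 SE), filled where the adjusted p was under 0.05. Cdk5r2 (0.30) in hTau against WT and Mark1 (-0.33) in CgA-KO/hTau against hTau are the filled points, and the left and middle panels share the hTau libraries.

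The second question was which transcripts differed with the loss of Chga in transgenic mice. Mark1 passed the test and was lower in CgA-KO/hTau than in hTau, 1 of the 10, beside 1268 higher (5.50%) and 974 lower genes (4.22%) among all tested. Its genotypes did not overlap, the sole such case among the 10 (6.63% of all genes tested). Of the 4274 genes of at least 50 CPM, 60 were separate and higher and 270 separate and lower. The fitted log2 fold change was below 0 for all 10 genes, with a median of -0.33. The median was 0.03 for all genes and -0.09 for the 4274 genes of at least 50 CPM, of which 2727 were below 0. With the GC and length offset the median of the 10 was -0.19, with 8 below 0. With the mitochondrial share as a covariate it was -0.10, with 7 below 0. The sign was least stable for the members near 0: Dyrk1a (0.00) kept it in 19 and Mark2 (-0.03) in 27 of 36 alternatives. The first and second comparisons share the 6 hTau libraries, so a low or high hTau value moves both, in opposite directions.

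Mark1, a kinase that detaches Tau from microtubules by phosphorylating its repeats, was at 109, 112, 112, 130.4, 128 and 121 CPM in CgA-KO/hTau replicates 1 to 6, against 142 to 154 in hTau. All CgA-KO/hTau libraries lay below all hTau libraries, and the WT libraries, at 111 to 141, overlapped CgA-KO/hTau and lay just below hTau. The means were 119 ± 9.23 and 149.5 ± 4.58 CPM (SD, n = 6 each), a log2 fold change of -0.33 ± 0.08 (adjusted p = 0.0142). The call held with each of the 17 libraries left out (adjusted p = 0.00644 to 0.0365) and in 31 of 36 alternatives, including the GC and length offset (-0.27, adjusted p = 0.0109) and the striatal marker score as a covariate (-0.29, adjusted p = 0.0387). Of the 5 that ended it, 2 were fits with a replicate block and 1 was the Ddx3y-low libraries alone. The others were the near-identical libraries summed (-0.31, adjusted p = 0.13) and the mitochondrial share as a covariate (-0.17, adjusted p = 0.78).

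Mark1 was also compared within the 2 sets of libraries. In Ddx3y-high libraries the log2 fold change against hTau was -0.43 ± 0.07 (adjusted p = 8.59e-04), and in Ddx3y-low libraries, whose striatal marker scores of -1.40 to -1.30 matched the -1.39 to -1.25 of hTau, it was -0.24 ± 0.07 (adjusted p = 0.116). The difference between these effects did not pass the test (-0.19 ± 0.10, adjusted p = 0.256), nor did that between the sets within CgA-KO/hTau (-0.19 ± 0.07, adjusted p = 0.0847). The 3 CgA-KO/hTau libraries with the highest mitochondrial share held the lowest Mark1 levels of that genotype, and the part of the mitochondrial share in the difference was not tested apart from the covariate fit above.

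With Mark1, 6 of the 10 members had an unadjusted p under 0.05 in this comparison, beside 27.8% of all genes tested and 32.8% of those of at least 50 CPM, and the other 5 did not pass the adjustment in edgeR. Cdk5r1 was at 290.3, 227, 317, 433, 359 and 335 CPM in CgA-KO/hTau and at 380.4 to 434 in hTau, and 5 of 6 CgA-KO/hTau libraries lay below all hTau libraries. Its log2 fold change was -0.37 ± 0.12 (adjusted p = 0.0649 by edgeR, 0.0369 by DESeq2), and it passed without WT replicate 4 (adjusted p = 0.0408) or CgA-KO/hTau replicate 4 (adjusted p = 0.0119). It was -0.17 with the GC and length offset (adjusted p = 0.301) and 0.04 with the mitochondrial covariate (adjusted p = 0.988). Cdk5 was at 48.6 to 74.1 CPM in CgA-KO/hTau, with a median of 61.7 and overlap with hTau in 1 library, and its log2 fold change was -0.33 ± 0.12 (adjusted p = 0.0762). It passed without WT replicate 4 (adjusted p = 0.024) or CgA-KO/hTau replicate 4 (adjusted p = 0.0329), and was -0.11 with the mitochondrial covariate (adjusted p = 0.964). Cdk5r2, by contrast with Cdk5r1, was at 359 ± 23.1 CPM, a log2 fold change of -0.09 ± 0.08 (adjusted p = 0.481).

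Gsk3a was at 165, 101, 155, 174, 160.5 and 52.7 CPM in CgA-KO/hTau, against 172 to 194 in hTau. Replicate 4 lay within the hTau range, the other 5 below it and replicate 6 farthest, yet the spread left a log2 fold change of -0.47 ± 0.21 with an adjusted p of 0.158. Without replicate 6 it was -0.31 (adjusted p = 0.166), with the GC and length offset -0.26 and with the mitochondrial covariate -0.18. Gsk3b ranged over 174 to 417 CPM in CgA-KO/hTau (log2 fold change -0.42 ± 0.32, adjusted p = 0.411). WT replicate 4 and CgA-KO/hTau replicates 2 and 6, the 3 libraries with the lowest Gsk3a, were also the 3 with the lowest Cdk5. Across all libraries, with genotype means removed, Gsk3a and Cdk5 had the highest pairwise r of the members (0.82, over 17 libraries that also share depth and GC trends), and Gsk3a and Dyrk1a the lowest (-0.59). Gsk3a shares 820 exon bases with the antisense gene 9130221H12Rik, listed at 1.60 to 18.9 CPM, and the sources used here do not say whether counting used the strand.

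Mark4 was at 65.3 ± 14.4 CPM in CgA-KO/hTau (log2 fold change -0.34 ± 0.15, adjusted p = 0.141), with adjusted p = 0.043 when CgA-KO/hTau replicate 5 was left out and a value of -0.05 with the GC and length offset. Mark2 was at 113 ± 15.2 CPM (-0.03 ± 0.10, adjusted p = 0.88). Dyrk1a had the same mean in both genotypes, 93.3 ± 24.7 and 93.4 ± 6.0 CPM, but its CgA-KO/hTau libraries spread from 67.7 to 131.

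Ppp2ca was at 358, 390.5 and 384 CPM in CgA-KO/hTau replicates 1 to 3 and at 467, 441 and 460.0 in replicates 4 to 6, against 466 to 505 in hTau and 465, 476, 452, 466 and 478 in the WT libraries. The first 3 CgA-KO/hTau libraries were the lowest of all 17, and the last 3 overlapped the other genotypes or lay just under them. Over all libraries the log2 fold change against hTau was -0.20 ± 0.08 (adjusted p = 0.102 by edgeR, 0.0329 by DESeq2, 0.0393 with the GC and length offset), and it was -0.11 with the striatal and -0.03 with the mitochondrial covariate (adjusted p = 0.266 and 0.99). In Ddx3y-high libraries it was -0.37 ± 0.07 (adjusted p = 0.00142) and in Ddx3y-low libraries -0.04 ± 0.07 (adjusted p = 0.77). The difference of the effects, -0.33 ± 0.10, passed the test (adjusted p = 0.041), as it did for 11.7% of all genes tested. Near-identical libraries lie in both sets, and the difference was not tested with them summed. The Ppp2ca exons share 2985 bases with 9430098F02Rik on the opposite strand in GENCODE, whose level was not analysed here.

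**Figure D3:**
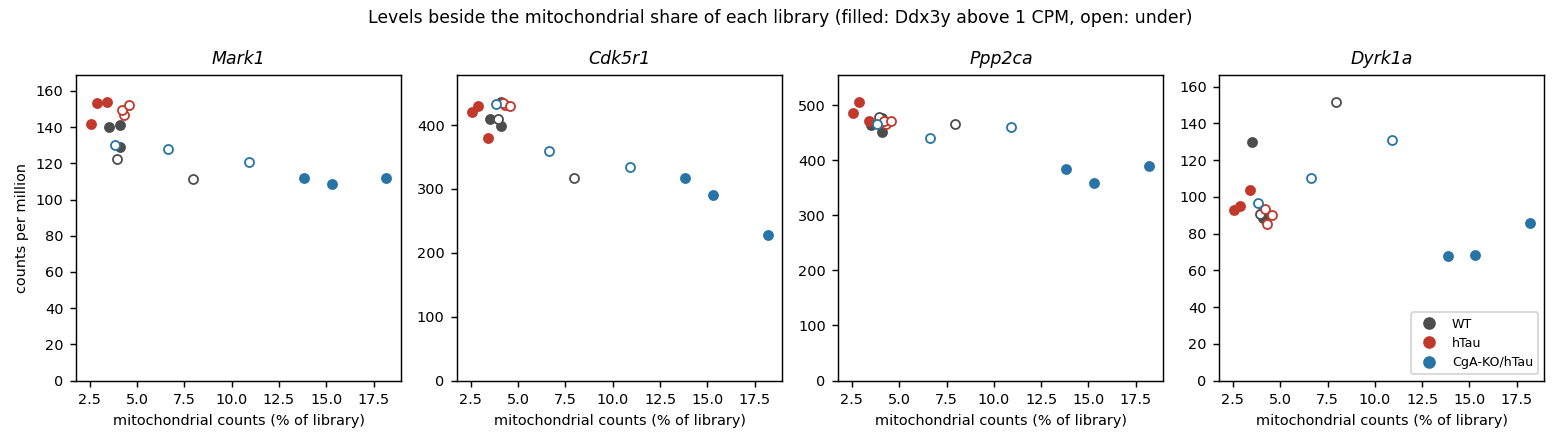
Level of Mark1, Cdk5r1, Ppp2ca and Dyrk1a (CPM, linear axes from 0) against the percentage of each library's counts from mitochondrially encoded genes. Points are libraries, coloured by genotype and filled where Ddx3y was above 1 CPM. CgA-KO/hTau replicates 1 to 3, at 13.8% to 18.2%, sit at 109 to 112 CPM for Mark1 and 358 to 390.5 CPM for Ppp2ca.

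Ddx3y-high and Ddx3y-low libraries were also compared within CgA-KO/hTau. Of the 10 genes, 3 were lower in the Ddx3y-high libraries and none higher, beside 11.0% of all genes lower and 8.10% higher. These were Dyrk1a (73.9 against 113 CPM, log2 difference -0.61 ± 0.19, adjusted p = 0.0342), Cdk5r1 (278 against 375 CPM, -0.43 ± 0.13, adjusted p = 0.0325) and Ppp2ca (378 against 456 CPM, -0.27 ± 0.07, adjusted p = 0.0129). None of the 10 differed between these libraries in WT or hTau, where the adjusted p-values were 0.331 or more. CgA-KO/hTau replicates 1 to 3 differ from replicates 4 to 6 in Ddx3y, in mitochondrial share and in striatal markers at once. Oligodendrocyte markers summed to 2401 to 2746 CPM in replicates 1 to 3 and 1393 to 1538 in replicates 4 to 6. Interneuron markers summed to 631 to 710 and 980 to 1013 CPM. These differences cannot be told apart.

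Within the Ddx3y-high libraries, 4 members were lower in CgA-KO/hTau than in hTau, as were 13.3% of all genes: Mark1, Ppp2ca, Cdk5r1 (-0.56 ± 0.13, adjusted p = 0.00653) and Mark4 (-0.62 ± 0.19, adjusted p = 0.0299). Within the Ddx3y-low libraries none was called by edgeR (1.72% of all genes in either direction). The difference of the effects was not called for Cdk5r1 (-0.36 ± 0.18, adjusted p = 0.227) or Mark4 (-0.55 ± 0.27, adjusted p = 0.209).

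In the third comparison, CgA-KO/hTau against WT, none of the 10 genes passed the test in edgeR, beside 3.56% of all genes higher and 2.89% lower, and no member's libraries were separate (3.60% of all genes). At an unadjusted p under 0.05 there were 2 of 10, beside 21.7% of all genes tested and 27.7% of those of at least 50 CPM, namely Cdk5r1 lower (log2 fold change -0.27 ± 0.13, adjusted p = 0.226) and Cdk5r2 higher (0.21 ± 0.08, adjusted p = 0.15). DESeq2 called 1, Cdk5r2 (adjusted p = 0.0497), beside 6.57% of all genes, and limma voom called 1, Cdk5r1 (adjusted p = 0.0342), beside 10.7%. With the striatal covariate edgeR called 2 as lower, Dyrk1a (-0.68, adjusted p = 0.00145) and Ppp2ca (-0.30, adjusted p = 0.00846). The share of all genes in that fit is not given here. The median log2 fold change of the 10 genes was -0.09, beside 0.01 for all genes and -0.08 for those of at least 50 CPM. With the mitochondrial share as a covariate the median of the 10 was 0.105, with 8 above 0.

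Gsk3b (0.02 ± 0.33), Cdk5 (-0.03 ± 0.12), Mark2 (-0.04 ± 0.10) and Mark4 (-0.06 ± 0.15) had log2 fold changes below their SEs. Mark1 was at 119 ± 9.23 CPM against 129 ± 12.6 (-0.12 ± 0.08, adjusted p = 0.419), Ppp2ca at 417 ± 45.0 against 467 ± 10.5 (-0.17 ± 0.08, adjusted p = 0.249), Gsk3a at -0.15 ± 0.22 and Dyrk1a at -0.24 ± 0.17 on the log2 scale. In Ddx3y-high libraries 3 members were lower than in WT, as were 9.39% of all genes, namely Mark1 (-0.31 ± 0.07, adjusted p = 0.0117), Cdk5r1 (-0.58 ± 0.13, adjusted p = 0.00824) and Ppp2ca (-0.30 ± 0.07, adjusted p = 0.0085). In Ddx3y-low libraries their log2 fold changes were 0.11, 0.05 and -0.05 (adjusted p = 0.528, 0.919 and 0.805), where 5.45% of all genes passed in either direction. The difference between the sets passed the test for Mark1 (-0.42 ± 0.11, adjusted p = 0.0425), as for 5.47% of all genes, and not for Cdk5r1 (adjusted p = 0.0791) or Ppp2ca (adjusted p = 0.175).

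Ratios between paired genes within a library do not depend on its depth and are given as a description. The Cdk5r2 to Cdk5r1 count ratio, p39 over p35, was 0.80 ± 0.15 in WT, 0.91 ± 0.06 in hTau and 1.14 ± 0.23 in CgA-KO/hTau, with its highest value, 1.46, in CgA-KO/hTau replicate 2. The Cdk5r1 to Cdk5 ratio was 6.41 ± 0.61, 5.46 ± 0.27 and 5.36 ± 1.01, and in CgA-KO/hTau it was 4.24 to 4.65 in replicates 1 to 3 and 5.84 to 6.89 in replicates 4 to 6. The Gsk3b to Gsk3a ratio spanned 0.59 to 2.71 in WT, 1.20 to 2.69 in hTau and 1.12 to 3.57 in CgA-KO/hTau, so that even the order of the paralogs by count changed between WT libraries. The Mark1 to Mark4 ratio was 1.94 ± 0.33, 1.83 ± 0.25 and 1.87 ± 0.32. Ppp2ca exceeded Ppp2cb, the gene of the second catalytic subunit, by count ratios of 4.71 ± 0.40, 4.11 ± 0.10 and 4.13 ± 0.37, and per length of exon the median ratios were 0.92, 0.81 and 0.79.

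**Figure D4:**
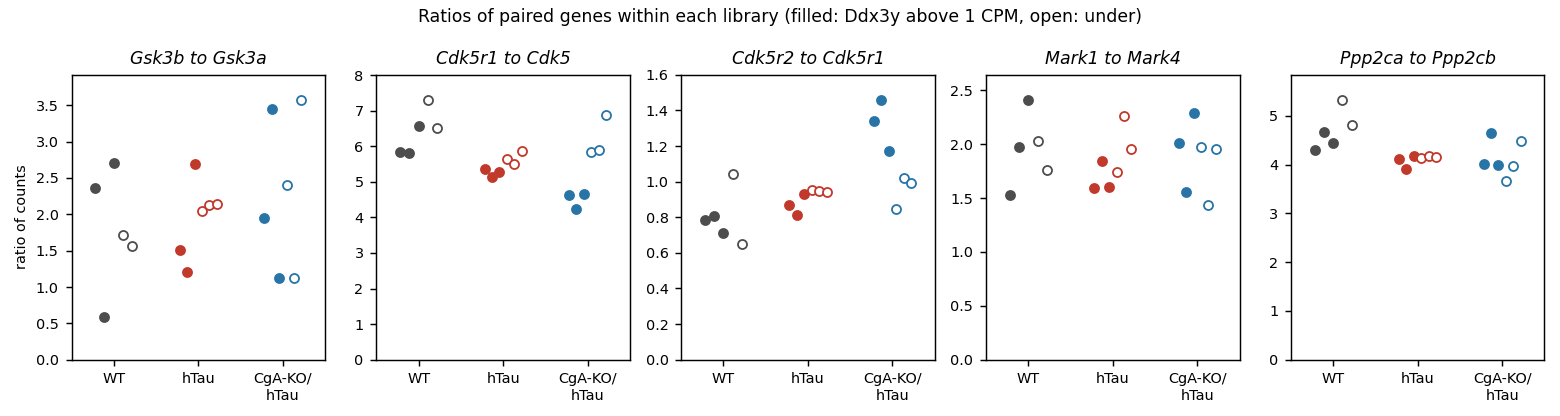
Count ratios of 5 gene pairs within each library, on linear axes from 0, by genotype. Points are libraries, filled where Ddx3y was above 1 CPM. The Cdk5r2 to Cdk5r1 ratio reaches 1.46 in CgA-KO/hTau, and the Gsk3b to Gsk3a ratio spans 0.59 to 2.71 within WT.

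Further Tau kinases, phosphatases and their regulators were described from a list of 69 genes, all of them tested. In hTau against WT, 5 were lower and none higher by edgeR, beside 3.95% lower and 1.95% higher among all genes tested. The split depended on the setting: DESeq2 called 7 higher and 5 lower, a fit of these genotypes alone 8 and 5, limma voom 14 and 6, and the GC and length offset 5 and 3. The shares of all genes under these settings are not given here. Of the 5 lower genes, 4 are described here. Mapk3, a MAP kinase that can phosphorylate Tau at proline-directed sites, was at 126 ± 23.2 CPM in WT and 82.3 ± 15.1 in hTau (log2 fold change -0.61 ± 0.18, adjusted p = 0.0498). Camk2d, a calcium/calmodulin-dependent kinase, was at 117 ± 40.7 and 70.3 ± 12.2 CPM (-0.74 ± 0.21, adjusted p = 0.0481). The remaining pair encode regulatory subunits that direct protein phosphatase 2A to substrates, Ppp2r2a at 182 ± 31.4 and 121 ± 12.0 CPM (-0.59 ± 0.13, adjusted p = 0.0109, no overlap) and Ppp2r5d at 127 ± 22.3 and 99.0 ± 4.81 CPM (-0.36 ± 0.10, adjusted p = 0.0481). The list's median log2 fold change was 0.05, with 39 above 0 and 30 below. Of the 4274 genes of at least 50 CPM, 2408 were above 0 and 1866 below. Striatal markers were lower in the same comparison, and with the striatal score as a covariate 9 of the 69 were higher and 11 lower. That fit extrapolates, since the scores of WT and hTau do not overlap.

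In CgA-KO/hTau against hTau, 3 of the 69 were higher and 2 lower, beside 5.50% higher and 4.22% lower among all genes tested. Mapk3 was higher, at 126 ± 34.6 CPM against 82.3 ± 15.1 (log2 fold change 0.62 ± 0.17, adjusted p = 0.0317). Igbp1, whose product binds the catalytic subunit of protein phosphatase 2A, was at 41.0 ± 4.61 CPM against 33.4 ± 0.64 (0.30 ± 0.08, adjusted p = 0.0317, no overlap), and the centrosomal gene Cdk5rap2 at 17.3 ± 4.22 against 12.6 ± 0.48 (0.46 ± 0.13, adjusted p = 0.0358). Ppme1, the methylesterase that acts on the same catalytic subunit, was lower at 189 ± 64.3 CPM against 296 ± 15.9 (-0.65 ± 0.17, adjusted p = 0.0273, no overlap). Capn1, a calpain, the protease family that cleaves p35 to p25, was lower at 19.7 ± 5.75 CPM against 31.0 ± 2.69 (-0.65 ± 0.17, adjusted p = 0.0222, no overlap). The median of the list was -0.08, with 46 of 69 below 0. Beside this, 2727 of the 4274 genes of at least 50 CPM were below 0, with a median of -0.09. Of all 23062 genes tested, 10907 were below 0, with a median of 0.03. In CgA-KO/hTau against WT 1 gene was called, Ppp2r5d, at 96.6 ± 8.87 against 127 ± 22.3 CPM (-0.40 ± 0.10, adjusted p = 0.0301). Of all genes tested, 2.89% were lower and 3.56% higher in that comparison.

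The list was also described by group in the comparison of CgA-KO/hTau with hTau. The 20 further kinases outside the proline-directed group had 16 log2 fold changes below 0, a median of -0.18 and no call. Of the 4274 genes of at least 50 CPM, 2727 were below 0, with a median of -0.09. The 8 proline-directed kinases had 1 call, higher, and a median of -0.09, the 19 subunits and modifiers of protein phosphatase 2A 1 call in each direction and a median of -0.04, the 9 other phosphatases no call and -0.06, the 4 tyrosine kinases no call and 0.17, and the 9 regulators 1 call in each direction and -0.08.

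**Figure D5:**
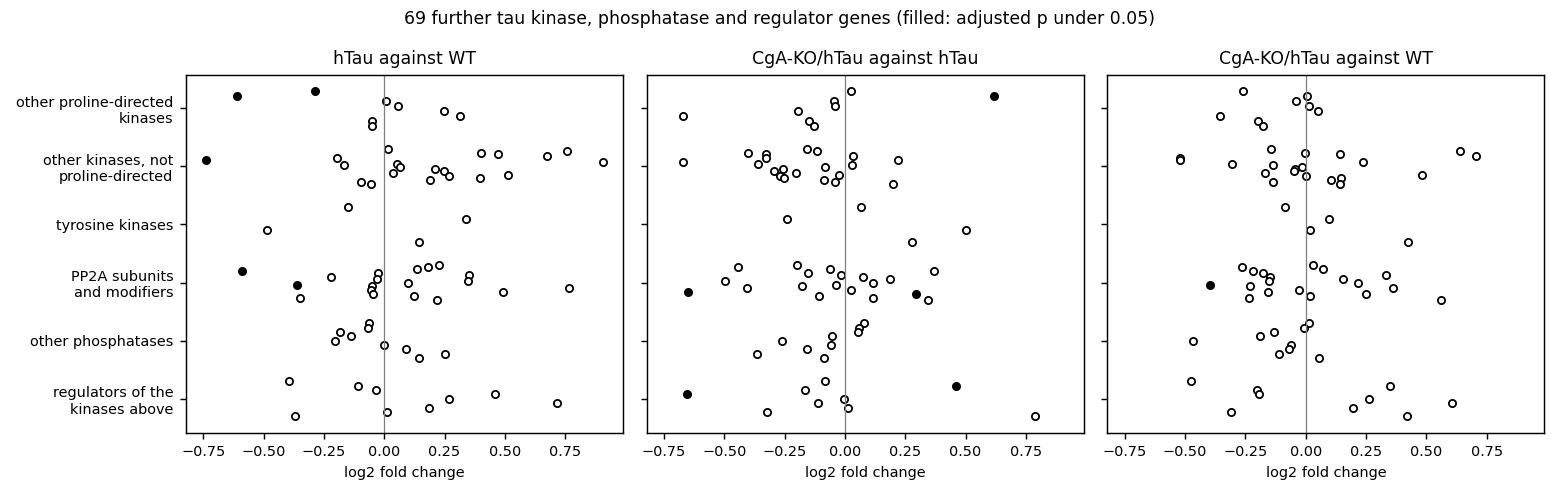
Log2 fold changes of the 69 further genes in the 3 comparisons, by group, filled where the adjusted p was under 0.05. In this edgeR fit, filled points lie below 0 in hTau against WT (5 genes, where DESeq2 called 7 higher and 5 lower), on both sides in CgA-KO/hTau against hTau (3 above and 2 below) and below 0 in CgA-KO/hTau against WT (1 gene). Among all genes tested, 1.95%, 5.50% and 3.56% were higher and 3.95%, 4.22% and 2.89% lower in the 3 comparisons.

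The genes whose levels followed Mark1 most closely over the 17 libraries, of 15473 of at least 1 CPM, were Napa (r = 0.97), Fndc5 (0.96), Lmtk2 (0.96), Fndc10 (0.96) and Pde4a (0.95), as Pearson's r of log2(CPM + 1). Each had its highest mean in hTau and its lowest in CgA-KO/hTau, as Mark1 did. Napa, which encodes the SNARE-recycling protein alpha-SNAP, was at 175 ± 31.9 CPM in WT, 234 ± 9.29 in hTau and 152 ± 29.8 in CgA-KO/hTau. Lmtk2, a membrane-bound kinase, was at 261 ± 43.9, 364 ± 19.6 and 250.5 ± 47.3 CPM. The libraries share depth, genotype and mitochondrial share, which such an r includes.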

How the data were processed

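The authors trimmed reads with Trimmomatic 0.39, aligned them to mm10 with STAR 2.7.10b, quantified genes with StringTie 1.3.6 and deposited whole-number counts per gene from prepDE, not normalised, for 5 WT, 6 hTau and 6 CgA-KO/hTau prefrontal cortex libraries. Such counts are derived from coverage, and low counts fell mostly on multiples of 3, so they overstate the fragments seen. The annotation release and the strand setting are not given in the sources used here. Identifiers without version matched GENCODE M21 for 52029 of 56953 genes and for all 10 members, which gave positions, exon length and GC content.

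Counts were tested with edgeR 4.0.16 in R 4.3.3: TMM, filterByExpr by genotype, a quasi-likelihood fit with 1 mean per genotype over all 17 libraries, and Benjamini-Hochberg adjustment over 23062 genes, called at an adjusted p under 0.05. The script was tested on simulated counts. Fold changes are first-named over second-named genotype. CPM are TMM-normalised. Python 3.11.15 made the tables and figures. Library totals ran from 8838334 to 227651681. In WT replicate 4 the members had as few as 381 counts (Cdk5) and 481 (Mark4), which overstate fragments, so counting error adds to the spread there.

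The members, the 69 further genes and the marker lists were chosen with earlier results of these data known. The genes named are the 10 members, up to 5 of the 69 per direction and comparison with the smallest p among those called, the 5 most like the member with the smallest p, Chga, Prnp and Mapt as checks, and fixed gene pairs as ratios. The striatal score is the mean of the log2(CPM + 1) of 12 striatal markers, each centred on its mean over the libraries. The alternatives were DESeq2 1.42.0, its size factors, no filter, a minimum of 10 counts per library, fits of the compared genotypes alone, a robust fit, limma 3.58.1 voom with quality weights, counts divided by 3, a replicate block, an offset for GC content and length with and without that block, Ddx3y or the striatal score as a covariate, near-identical libraries summed, mitochondrial genes left out, the threshold of the study and each library left out. The mitochondrial percentage as a covariate, the libraries under 50000000 counts left out and the sets by Ddx3y were added after the data had been seen. The values of 1 gene of the wider list are not reported here, and the list's counts include it.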

Additional observations from a re-analysis of the deposited data

Results flagged for a closer look

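In 3 of the 30 groups formed by the 10 members and 3 genotypes, 1 library lay apart from the rest by Dixon's criterion, and chance marks about 1 group in 20. hTau replicate 3 was the lowest hTau library for Gsk3a, at 172.5 CPM, and for Cdk5r1, at 380.4 CPM. WT replicate 4, the shallowest library, was the lowest WT library for Cdk5, at 43.46 CPM.

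The effect of genotype differed between Ddx3y-high and Ddx3y-low libraries for 2 members by a test of the difference itself. For Ppp2ca the log2 fold change of CgA-KO/hTau against hTau in Ddx3y-high libraries minus that in Ddx3y-low libraries was -0.326 (adjusted p = 0.041), and for Mark1 the same difference in CgA-KO/hTau against WT was -0.417 (adjusted p = 0.0425). For Ppp2ca, Ddx3y-high minus Ddx3y-low libraries came to -0.271 ± 0.068 within CgA-KO/hTau and 0.054 ± 0.068 within hTau. For Mark1 the same contrast was -0.191 ± 0.074 within CgA-KO/hTau and 0.226 ± 0.083 within WT, where the Ddx3y-low set holds 2 libraries. The Mark1 result thus draws on the WT libraries as well as on CgA-KO/hTau. In CgA-KO/hTau replicates 1 to 3 the mitochondrial share was also highest, and the part of that share was not tested.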

How the results depend on the processing

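Counts of called genes depended on the setting and are given as the 10 members in hTau against WT, CgA-KO/hTau against hTau and CgA-KO/hTau against WT (1, 1 and 0 as reported), then the 69 further genes in the same order (5, 5 and 1). DESeq2 called 2, 3 and 1 members and 12, 12 and 9 further genes, and limma voom 2, 5 and 1 and 20, 21 and 10. A fit of the 2 genotypes compared called 1, 2 and 0, and 13, 9 and 0. Without a filter there were 0, 1 and 0, and 1, 2 and 1. With at least 10 counts in every library the further genes came to 5, 8 and 5, and with counts divided by 3 to 5, 8 and 2. The GC and length offset gave 0, 2 and 0, and 8, 8 and 9. With the near-identical libraries summed no member and no further gene was called, 0 in each comparison. Leaving out mitochondrial genes changed the further genes to 3, 6 and 1, and the Ddx3y covariate to 6, 6 and 3. With the striatal covariate there were 1, 1 and 2 members, the first being Dyrk1a in place of Cdk5r2, and 20, 3 and 26 further genes. In hTau against WT that fit extrapolates, since the scores of these genotypes do not overlap. The threshold of the study (p under 0.01 and a log2 fold change over 0.5) gave 0, 0 and 0, and 8, 3 and 3. Of the settings added after the data had been seen, leaving out libraries under 50000000 counts gave 1, 2 and 0, and 6, 11 and 3, the mitochondrial covariate 1, 0 and 0, and 8, 0 and 0, the Ddx3y-high libraries 0, 4 and 3, and 0, 28 and 25, and the Ddx3y-low libraries 2, 0 and 0, and 18, 1 and 2. In the Ddx3y-high libraries, 23 of the 28 and 17 of the 25 further genes were lower. Beside these, 13.3% of all genes were lower in CgA-KO/hTau than in hTau there, and 9.39% lower than in WT. The shares of all genes higher there, and those of hTau against WT in either set, are not given here. In the Ddx3y-low libraries 1.72% and 5.45% were called in either direction. Shares of all genes under most other settings are not given here. With each library left out the members ranged over 0 to 1, 1 to 3 and 0, and the further genes over 1 to 9, 0 to 15 and 0 to 8.

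The replicate block called 0 members in every comparison and 1, 0 and 0 further genes, and with the GC and length offset 0 members and 4, 2 and 1. The r of the deviations of the 16 same-numbered pairs of libraries ran from -0.23 to 0.44, so the numbers were not taken to pair the samples. With the block the call of Mark1 in CgA-KO/hTau against hTau ended (adjusted p = 0.0672, and 0.0573 with the offset), as did that of Cdk5r2 in hTau against WT (adjusted p = 0.131, and 0.904 with the offset).

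Of the 1080 log2 fold changes of members under an alternative, 1004 kept direction and side of the threshold or moved by less than 1 SE about 0. The sign turned in 86, of which none passed the test. In 74 of these the value as reported was smaller than its SE, and the other 12 follow. It turned for Cdk5r2 in hTau against WT with the GC and length offset (-0.041, and -0.049 with the block) and in CgA-KO/hTau against hTau with the offset (0.263, and 0.259 with the block) and in Ddx3y-high libraries (0.029). It also turned for Mark4 in hTau against WT with the striatal covariate (-0.123), for Dyrk1a in hTau against WT without libraries under 50000000 counts (0.046), for Cdk5r1 in CgA-KO/hTau against hTau (0.043) and WT (0.086) with the mitochondrial covariate and against WT in Ddx3y-low libraries (0.046), and for Mark1 in CgA-KO/hTau against WT with the mitochondrial covariate (0.028) and in Ddx3y-low libraries (0.112). The cause was not tested. Depth limits WT replicate 4 most.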
